A study of Mus musculus with 12 samples.

Results

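The eicosanoid synthesis enzymes are 10 genes, listed by name, that release arachidonic acid and turn it into prostaglandins, thromboxane and leukotrienes. All 10 were matched to probes, among 17277 genes with a symbol. Their mRNA was measured in 3 mouse cell lines grown in serum-containing medium without any treatment: AtT20, a line from a pituitary tumor, BV2, an immortalized microglial line, and N18, a neuroblastoma line. By the study's account, the culture conditions of BV2 favored a resting state over an activated one. Each line was 4 separately grown plates with 1 single-color array per plate, and each stands for itself as a cell line rather than for the tissue it came from. In RNA pooled over a plate, more cells carrying a transcript and more transcript per cell cannot be told apart.

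Arachidonic acid is held in membrane phospholipids and is set free by a phospholipase A2. The cyclooxygenases convert it into prostaglandin H2, which terminal synthases turn into prostaglandin E2, prostaglandin D2 or thromboxane. In the other branch 5-lipoxygenase, with an activating protein in the nuclear membrane, makes leukotriene A4, from which separate enzymes make leukotriene B4 or leukotriene C4. In the brain microglia are a known source of prostaglandins, and prostaglandins act back on neurons and glia through G protein-coupled receptors.

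Of the 3 lines BV2 had the most enzymes above the threshold for expression. There 7 of the 10 were above it, as were 53.3% of all 25128 genes and targets. In N18 it was 3 of 10 (55.4% of all) and on the AtT20-labelled plates 3 of 10 (35.0% of all). With olfactory receptor genes as controls the BV2 count was 5, beside 31.3% of all, and the calls of Ptges and Ltc4s were lost. Ptgs2 and Pla2g4a were above the threshold only in BV2, where both were present at high levels on every plate. Ptgs1 was above it in BV2 and N18 and not on the AtT20-labelled plates. Alox5, Tbxas1 and Hpgds were below it in every line. Expression here is a call from the 10 seminal proteins, genes the study took as ones that these lines should not make: the level of a gene is its log2 signal minus their mean on the plate, and the threshold is 2 SD of their signals, averaged over the plates. It was 0.37 ± 0.11 (SD, n = 4) for AtT20, 0.56 ± 0.15 for BV2 and 0.74 ± 0.10 for N18. The counts depend on these separate thresholds: in N18 Ptges (0.62) and Ltc4s (0.65) missed its own threshold but were above that of BV2.

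The labels were checked against marker genes, the array values against each other. Of 12 microglia markers 9 were above the threshold in BV2 (3 in N18, 2 for AtT20), Csf1r at 4.70 ± 0.39, while Aif1, Cx3cr1 and P2ry12 were below it. Of 11 neuroblastoma markers 9 were above it in N18 and 5 in each of the other lines, with Nefl at -0.09 in N18 and at 4.46 on the AtT20-labelled plates. Of 8 corticotroph markers only Pitx1 was above it on the AtT20-labelled plates, where Pomc was at 0.29 ± 0.26 (threshold 0.37), against 2 in BV2 and 5 in N18, among them Scg2 at 3.98 and Crhr1 at 3.16. Those plates are therefore named by their label. Their arrays also had the narrowest spread of signal, with an interquartile range over the probes of 0.38 to 0.78 on the log2 scale against 1.28 to 1.73 for BV2 and 1.91 to 2.21 for N18. Plates of a line correlated at 0.896 to 0.959 (AtT20), 0.976 to 0.993 (BV2) and 0.982 to 0.993 (N18). Arrays come 4 to a slide and which plates shared one is not known here, so slide and line cannot be told apart. The number of arrays limits the precision of all values.

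**Figure D1:**
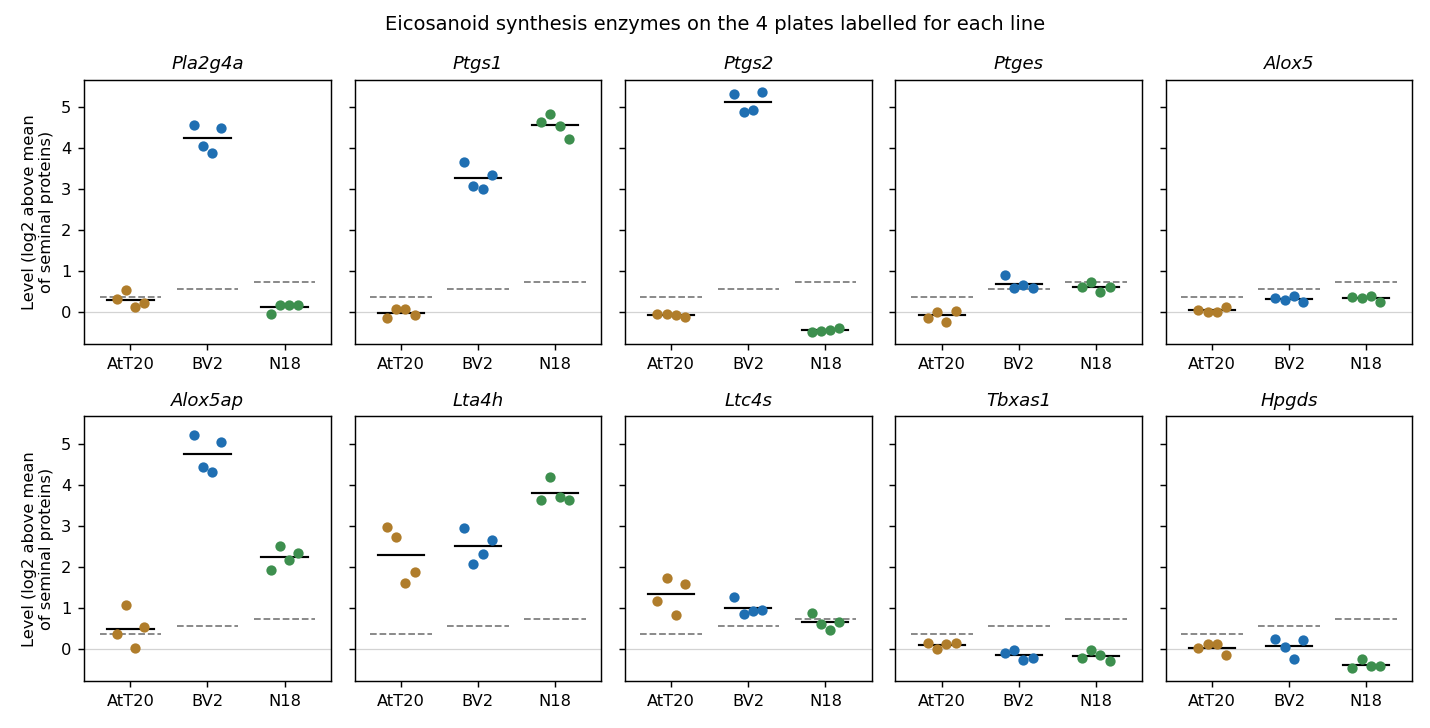
Level of each enzyme on each plate (y axis, log2 above the mean of the seminal proteins on the plate) for the plates labelled AtT20, BV2 and N18 (x axis). Points are plates, black lines the means of 4 plates and dashed lines the threshold of the line. Ptgs2 and Pla2g4a stand above the threshold in BV2 only, Ptgs1 in BV2 and N18, and Alox5, Tbxas1 and Hpgds in no line.

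The promoters of the cyclooxygenases and of Pla2g4a are shown (the table used holds none for Alox5ap), since Ptgs2 and Pla2g4a are neighbors on chromosome 1 with no other protein-coding gene between them and both stood above the threshold only in BV2, while Ptgs1, which makes the same product as Ptgs2, lies on chromosome 2 and was above it in N18 too. Each is the 250 bases before the annotated transcript start, from RefSeq on GRCm38.p6, read 5′ to 3′ on the strand of the gene. Capitals mark matches, on either strand, to any of 7 short motifs: TATA box (TATAAA), GC box (GGGCGG), E-box (CACGTG), CRE half-site (CGTCA), PU.1 core (GAGGAA), C/EBP core (TTNCGNAA) and kappaB (GGG and CC with any 5 bases between them). The windows are chr1:150099781-150100030 on the + strand for Ptgs2, chr1:149961291-149961540 on the - strand for Pla2g4a and chr2:36230176-36230425 on the + strand for Ptgs1.
Ptgs2: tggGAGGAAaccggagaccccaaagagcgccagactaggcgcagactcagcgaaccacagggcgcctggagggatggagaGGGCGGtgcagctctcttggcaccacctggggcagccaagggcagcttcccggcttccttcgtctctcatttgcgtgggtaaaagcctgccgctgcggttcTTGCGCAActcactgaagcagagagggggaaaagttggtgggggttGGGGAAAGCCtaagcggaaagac
Pla2g4a: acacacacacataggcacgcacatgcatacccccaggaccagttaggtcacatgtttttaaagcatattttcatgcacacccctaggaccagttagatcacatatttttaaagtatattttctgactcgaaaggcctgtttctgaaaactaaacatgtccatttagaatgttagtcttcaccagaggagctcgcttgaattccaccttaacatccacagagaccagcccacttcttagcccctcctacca
Ptgs1: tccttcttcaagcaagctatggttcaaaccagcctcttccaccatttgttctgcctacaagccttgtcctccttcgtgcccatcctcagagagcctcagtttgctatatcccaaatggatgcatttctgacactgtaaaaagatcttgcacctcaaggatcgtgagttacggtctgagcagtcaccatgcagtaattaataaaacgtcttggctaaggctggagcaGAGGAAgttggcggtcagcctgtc
The window of Ptgs2 had a GC content of 61.6%, above the median of 52.4% over 32851 windows, and held a GC box, a PU.1 core, a C/EBP core at 69 to 62 bases before the start and a kappaB match at 23 to 14. The C/EBP core occurred in 2.04% of all windows, the GC box in 32.7%, the PU.1 core in 23.3% and the kappaB letters in 45.8%. The window of Pla2g4a had 43.2% GC and none of the 7 motifs. The table has 2 windows for this gene, and the other, farther downstream, held a TATA box on the opposite strand. The window of Ptgs1 had 48.0% GC and a PU.1 core at 24 to 19 bases before the start. Over the 9 members with a window, 7 held a PU.1 core, 4 kappaB letters, 3 a GC box, 2 a TATA box (12.4% of all windows) and 1 a C/EBP core, and none held an E-box (6.02%) or a CRE half-site (17.8%). Some matches share letters: the kappaB and GC box matches of Ptges and Alox5, both TATA box matches of Tbxas1, and the PU.1 and kappaB matches of Lta4h. These are matches of letters only, and no binding was measured. The part of the promoters or of the position of the genes in their levels was not tested.

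Lines were compared by limma on log2 values after quantile normalization, with p values adjusted over all 25128 genes and targets. Between BV2 and N18, 7 of the 10 enzymes passed an adjusted p of 0.05, which 40.9% of all genes and targets did. Of these 5 were higher in BV2 (21.9% of all) and 2 lower (19.0% of all). The median difference of BV2 from N18 was 0.36 over the enzymes and 0.06 over all genes and targets. Levels relative to the seminal proteins turned the median over all to -0.18, and no normalization to -0.15, and the share of calls higher in BV2 went from 53.5% to 25.3% and 19.8%. The 5 higher were Ptgs2, Pla2g4a, Alox5ap, Ltc4s and Hpgds, and the 2 lower Ptgs1 and Lta4h.

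Against the plates labelled AtT20, 9 enzymes differed from BV2 and 7 from N18, where 73.6% and 76.4% of all genes and targets did. In BV2 5 were higher (26.6% of all) and 4 lower (47.0% of all), with a median of 0.18 against -0.23 over all. In N18 1 was higher (27.8% of all) and 6 lower (48.6% of all), with a median of -0.42 against -0.25. On this scale the seminal proteins themselves were called lower than on the AtT20-labelled plates. In BV2 these were 6 of the 10 (47.0% of all), with a median of -0.34. In N18 they were 8 of the 10 (48.6% of all), with a median of -0.42, and none was higher in either. A call of that size below the thresholds cannot be told apart from this shift of the controls. Directions in these comparisons depended on the scaling. Relative to the seminal proteins the median over all was 0.28 for BV2 minus AtT20 and 0.54 for N18 minus AtT20, and without normalization -1.08 and -0.85. The share of calls higher than on the AtT20-labelled plates was 36.2% for BV2 (74.2% relative to the seminal proteins, 13.5% without normalization) and 36.4% for N18 (78.8% and 24.0%). The 3 comparisons share plates, so they are given side by side and are not independent.

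**Figure D2:**
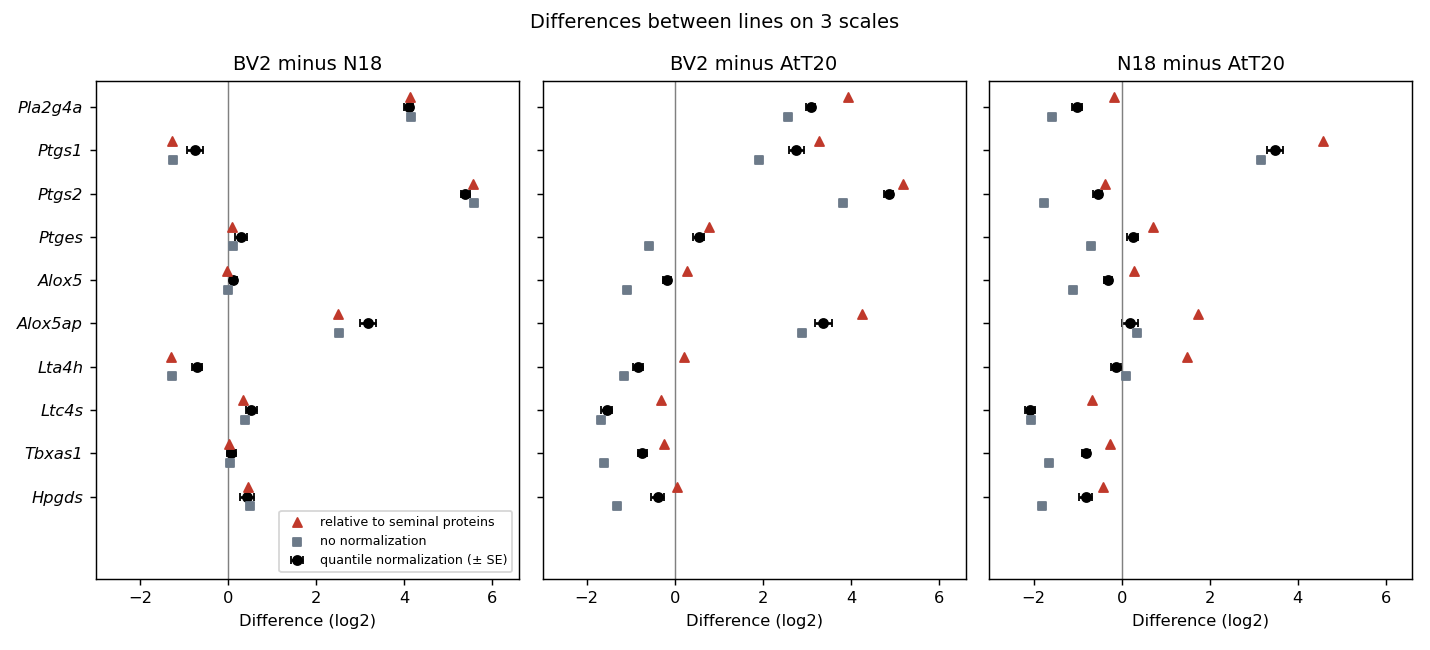
Difference between lines (x axis, log2) for each enzyme (y axis). Black points are limma estimates after quantile normalization with their SE, red triangles the differences relative to the seminal proteins and grey squares those without normalization. Ptgs2 and Pla2g4a were higher in BV2 on all 3 scales in both of its comparisons, and the differences of BV2 from N18 lay closer together over the scales than the differences from AtT20.

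Pla2g4a encodes cytosolic phospholipase A2, which frees arachidonic acid. Its level on plates 1 to 4 was 4.56, 4.06, 3.87 and 4.50 in BV2, -0.04, 0.18, 0.19 and 0.18 in N18, and 0.32, 0.55, 0.13 and 0.24 on the AtT20-labelled plates. Every BV2 plate was above every other plate, and the averages of N18 (0.13 ± 0.11) and AtT20 (0.31 ± 0.18) were below their thresholds. After quantile normalization BV2 was higher than N18 by 4.10 (SE 0.11, adjusted p = 6.41e-14), at least 11.3-fold, and higher than AtT20 by 3.08 (adjusted p = 9.70e-13), at least 5.7-fold. A fold against a line below its threshold is a lower bound, computed from that threshold as the smallest over the 3 scales and rounded down. It is taken from plate averages, with no allowance for their spread. On the scale of the seminal proteins the 3 probes of the gene were higher in BV2 than in N18 by 4.50, 3.36 and 4.08. N18 was lower than AtT20 by -1.02 (adjusted p = 4.22e-07), and by -0.18 (adjusted p = 0.372) relative to the seminal proteins, with both lines below their thresholds.

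Ptgs2, the inducible cyclooxygenase, had the widest range over the lines. Its level was 5.31, 4.87, 4.92 and 5.37 in BV2, -0.48, -0.45, -0.42 and -0.39 in N18 and -0.04, -0.04, -0.07 and -0.10 on the AtT20-labelled plates. The BV2 plates averaged 5.12 ± 0.26 (SD, n = 4), and the 8 plates of the other lines were all below 0. The difference of BV2 from N18 was 5.39 (SE 0.10, adjusted p = 4.33e-15), at least 20.7-fold, and ranked 4 by size among the 25128 genes and targets. From AtT20 it was 4.85 (adjusted p = 5.66e-15), at least 10.4-fold, and ranked 18. Probe by probe, BV2 was above N18 by 4.92, 6.03 and 5.37 on the scale of the seminal proteins. N18 was lower than AtT20 by -0.54 (adjusted p = 1.26e-04) with both below their thresholds.

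Ptgs1 is the constitutive cyclooxygenase. It had levels of 4.63, 4.82, 4.54 and 4.22 in N18 and of 3.66, 3.07, 3.00 and 3.35 in BV2, and of -0.14, 0.09, 0.09 and -0.07 on the AtT20-labelled plates. The 3 lines did not overlap, with N18 (4.55 ± 0.25) highest, BV2 (3.27 ± 0.30) next and AtT20 (-0.01 ± 0.12) near the seminal proteins. BV2 was lower than N18 by -0.74 (SE 0.18, adjusted p = 0.00366), a 1.67-fold difference, and by -1.28 (adjusted p = 1.07e-04) relative to the seminal proteins. Against AtT20 the difference was 3.49 for N18 (adjusted p = 5.32e-11), at least 6.0-fold, and 2.76 for BV2 (adjusted p = 9.84e-10), at least 2.9-fold. All 3 probes were lower in BV2 than in N18 with no overlap of plates, although the third was dimmer, at 0.93 in BV2 and 2.06 in N18 against 4.18 and 5.42 for the first. Of the cyclooxygenases, N18 therefore had only Ptgs1 above its threshold, BV2 both, and the plates labelled AtT20 neither.

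Ptges, the inducible prostaglandin E synthase, acts on the product of both cyclooxygenases. Its level was 0.92, 0.59, 0.68 and 0.60 in BV2, 0.62, 0.74, 0.49 and 0.63 in N18 and -0.13, 0.02, -0.22 and 0.03 on the AtT20-labelled plates. BV2 (0.70 ± 0.15) passed its threshold of 0.56 by less than 1 SD and on 3 of 4 plates, N18 (0.62 ± 0.10) missed its own of 0.74, and the plates of these lines overlapped. The call in BV2 was lost under 3 of 6 alternative settings, namely olfactory receptor genes as controls, 3 SD, and all 4 plates above their own threshold. The difference of BV2 from N18 was 0.29 (SE 0.13, adjusted p = 0.0802), which passed in a fit of those 8 plates alone (adjusted p = 0.00157) and with the median of probes (0.38, adjusted p = 0.0496). From AtT20 BV2 differed by 0.54 (adjusted p = 0.0011), which turned to -0.59 without normalization. In BV2 probes 2 and 3 were above the threshold and probe 1, at -0.18 ± 0.20, was not.

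Tbxas1 and Hpgds make the other prostanoids of the list, thromboxane and prostaglandin D2. Tbxas1 was at -0.10, -0.01, -0.27 and -0.21 in BV2, -0.21, -0.03, -0.14 and -0.29 in N18 and 0.14, 0.01, 0.12 and 0.14 on the AtT20-labelled plates. Hpgds was at 0.25, 0.06, -0.24 and 0.23 in BV2, -0.46, -0.24, -0.42 and -0.42 in N18 and 0.03, 0.13, 0.13 and -0.14 on the AtT20-labelled plates. None of the 3 probes of either gene was above the threshold in any line, so no fold is given. Hpgds still differed between BV2 and N18 by 0.43 (SE 0.15, adjusted p = 0.0252), with both lines below their thresholds. It lost that call in 5 of 8 fits without 1 plate. Tbxas1 differed between them by 0.07 (adjusted p = 0.629).

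Both genes were also called lower in BV2 and N18 than on the AtT20-labelled plates, again below every threshold. So were 6 (BV2) and 8 (N18) of the 10 seminal proteins (47.0% and 48.6% of all genes and targets), with medians of -0.34 and -0.42. For Tbxas1 the differences were -0.74 (BV2, adjusted p = 6.60e-06) and -0.81 (N18, adjusted p = 2.17e-06). For Hpgds they were -0.39 (BV2, adjusted p = 0.0246) and -0.82 (N18, adjusted p = 8.32e-05), the first turning to 0.04 relative to the seminal proteins. Of the 8 markers of mast cells, another cell type rich in Hpgds, 4 were above the threshold in BV2, 2 in N18 and 4 for AtT20, Mcpt4 highest at 2.08, 2.06 and 1.69, while Kit and Cpa3 were below it in every line. The summed level of the markers was 4.5 to 5.6 in BV2, 3.3 to 4.7 in N18 and 2.7 to 5.6 on the AtT20-labelled plates. Of 5 markers of megakaryocytes, cells rich in Tbxas1, 2 were above the threshold in BV2, 3 in N18 and 2 for AtT20, with Pf4, also made by macrophages, at 2.00 ± 0.35 in BV2 and below the threshold elsewhere. Their summed level was 3.2 to 5.0 there, 2.3 to 3.5 in N18 and 0.7 to 2.1 on the AtT20-labelled plates. Of 6 fibroblast markers 2, 3 and 3 passed in BV2, N18 and AtT20, where 53.3%, 55.4% and 35.0% of all genes and targets did. Each plate was grown as a culture of 1 line. These markers are a check of the labels only, and no part of other cells was tested.

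Alox5 encodes 5-lipoxygenase, the first enzyme of the leukotriene branch. Its level was 0.34, 0.30, 0.40 and 0.25 in BV2, 0.37, 0.34, 0.40 and 0.26 in N18 and 0.06, 0.00, 0.02 and 0.13 on the AtT20-labelled plates. BV2 and N18 overlapped, and both were below the threshold under all 6 alternatives, although 1 of the 3 probes, at 0.71 ± 0.22, was above it in BV2. The difference of BV2 from N18 was 0.12 (SE 0.09, adjusted p = 0.295) and turned to -0.02 relative to the seminal proteins. From AtT20, BV2 differed by -0.17 (adjusted p = 0.0899) and N18 by -0.30 (adjusted p = 0.00653), and relative to the seminal proteins these values were 0.27 and 0.29.

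Alox5ap, whose product presents arachidonic acid to 5-lipoxygenase, was well above the threshold where Alox5 was not. Its level was 5.21, 4.42, 4.30 and 5.04 in BV2, 1.93, 2.50, 2.16 and 2.35 in N18 and 0.36, 1.07, 0.02 and 0.53 on the AtT20-labelled plates. BV2 (4.74 ± 0.45) and N18 (2.24 ± 0.25) did not overlap, and the 3 probes agreed, with differences of 2.53, 2.55 and 2.43 on the scale of the seminal proteins. After quantile normalization BV2 was higher than N18 by 3.18 (SE 0.19, adjusted p = 5.81e-10), a 9.06-fold difference on that scale, and higher than AtT20 by 3.37 (adjusted p = 1.13e-10). The difference from N18 was smaller on the other scales, at 2.53 without normalization and 2.50 relative to the seminal proteins. That from AtT20 was 2.88 without normalization and 4.25 on the scale of the seminal proteins, and no fold is given against a line so near its threshold. On the plates labelled AtT20 the average of 0.49 ± 0.44 passed the threshold through 2 of the 4 plates. That call was lost under 3 of 6 alternatives and at 0.30 without plate 2. N18 and AtT20 differed by 0.19 (adjusted p = 0.36) after quantile normalization and by 1.74 (adjusted p = 7.03e-06) relative to the seminal proteins.

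Lta4h makes leukotriene B4 from leukotriene A4. Its level was 2.96, 2.08, 2.31 and 2.65 in BV2, 3.62, 4.18, 3.71 and 3.63 in N18 and 2.97, 2.72, 1.62 and 1.88 on the AtT20-labelled plates. N18 (3.79 ± 0.27) was above BV2 (2.50 ± 0.38) without overlap, and BV2 overlapped AtT20 (2.30 ± 0.65). After quantile normalization BV2 was lower than N18 by -0.70 (SE 0.11, adjusted p = 6.46e-05), a 1.63-fold difference on that scale. It was lower by -1.29 (adjusted p = 0.00138) relative to the seminal proteins and by -1.26 (adjusted p = 4.27e-07) without normalization.

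The probes of Lta4h disagreed on AtT20. Probe 1 was at 0.35 to 0.99 on the AtT20-labelled plates, 2.77 to 3.77 in BV2 and 4.61 to 5.06 in N18, and probe 2 at -0.22 to 0.33, 1.90 to 2.99 and 3.31 to 4.08. Probe 3 was brightest on the AtT20-labelled plates, with means of 3.59 ± 0.78, 0.54 ± 0.18 and 1.08 ± 1.37. In N18 probe 3 was at -0.94 on plate 1 and at 2.08, 1.75 and 1.43 on the others. Without this probe, a choice made after seeing the data, the level on the AtT20-labelled plates was 0.33 ± 0.25, below the threshold, and those of BV2 and N18 were 2.95 ± 0.41 and 4.28 ± 0.25. The difference of BV2 from AtT20, -0.83 (adjusted p = 3.83e-06) with all probes, then became 1.64 (adjusted p = 2.61e-08), and that of N18 from AtT20, -0.13 (adjusted p = 0.303), became 2.37 (adjusted p = 2.66e-10). With all probes but relative to the seminal proteins they were 0.20 and 1.49. The difference of BV2 from N18 was -0.74 (adjusted p = 4.92e-04) without probe 3. The order N18 above BV2 thus held in both cases, and the place of AtT20 rested on 1 probe.

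Ltc4s joins glutathione to leukotriene A4 and was above the threshold on the AtT20-labelled plates and in BV2. Its level there was 1.16, 1.73, 0.84 and 1.58, against 1.28, 0.86, 0.94 and 0.95 in BV2 and 0.87, 0.61, 0.46 and 0.67 in N18. The averages were 1.33 ± 0.41, 1.01 ± 0.19 and 0.65 ± 0.17, the plates of each line overlapped those of both others, and N18 was below its threshold. After quantile normalization AtT20 was above BV2 (BV2 minus AtT20 -1.55, adjusted p = 5.72e-09), a 2.93-fold difference, and above N18 (-2.08, adjusted p = 1.51e-10), at least 1.5-fold. Relative to the seminal proteins the first was -0.32 (adjusted p = 0.105) and the second -0.67 (adjusted p = 0.0014). On that scale the 3 probes differed in sign for BV2 minus AtT20, at 0.12, -0.13 and -0.61. BV2 was higher than N18 by 0.53 (SE 0.12, adjusted p = 0.0017), and by 0.35 (adjusted p = 0.0924) relative to the seminal proteins. The call of Ltc4s in BV2 was lost with olfactory receptor genes as controls.

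**Figure D3:**
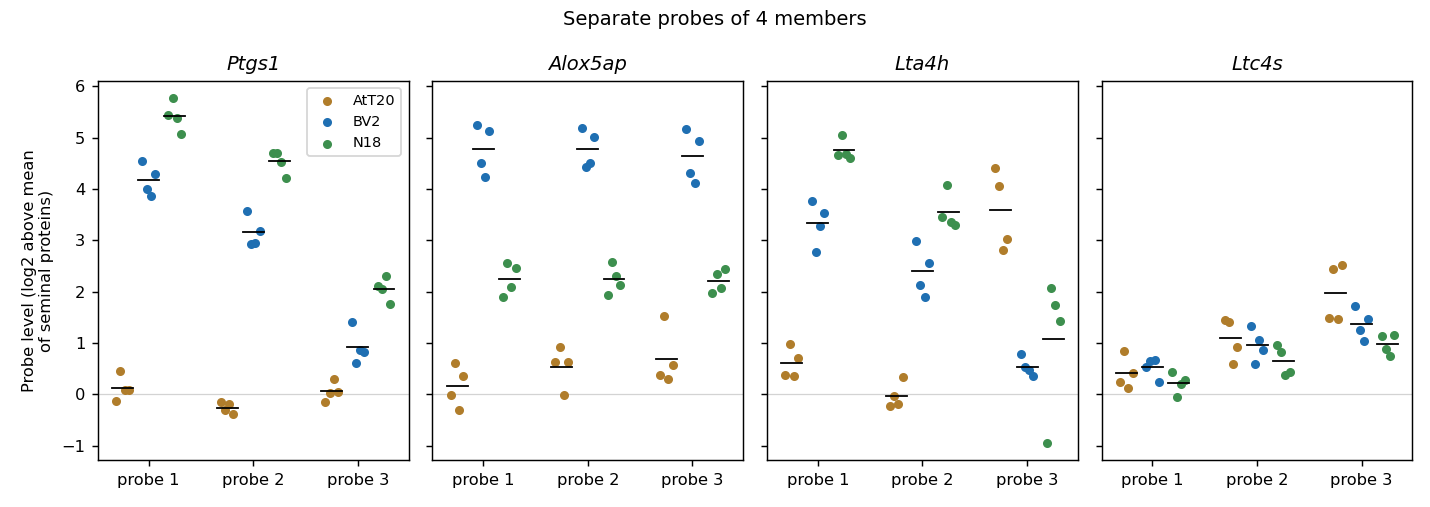
Level of each of the 3 probes (x axis) of Ptgs1, Alox5ap, Lta4h and Ltc4s on each plate (y axis, log2 above the mean of the seminal proteins), colored by line, with black lines for the means of 4 plates. The probes of Alox5ap nearly coincide, while probe 3 of Lta4h is brightest on the AtT20-labelled plates, where probes 1 and 2 are dim.

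Over the BV2 plates, 6 of the 7 members above the threshold had higher levels on plates 1 and 4 than on plates 2 and 3, Ptges being the exception. Of the 13386 genes and targets above the threshold in BV2, 70.3% had the same order. After quantile normalization none of the 7 members had it, against 21.0% of those genes and targets, and the SD over the BV2 plates went from 0.33 to 0.11 for Pla2g4a and from 0.45 to 0.13 for Alox5ap. The interquartile range of the arrays was 1.73 and 1.65 on plates 1 and 4 and 1.28 and 1.55 on plates 2 and 3, and its part in these values was not tested.

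The genes nearest in pattern were found by the root mean square difference of quantile-normalized log2 values over the 12 arrays, each gene centered on its own mean, among 17267 other genes. Near to Ptgs2 were Cd14, the endotoxin co-receptor (0.25), and Lyz2, the macrophage lysozyme (0.32). Cd14 was at 5.53 ± 0.26 in BV2 and 0.16 ± 0.11 in N18. Nearest to Pla2g4a were Sirpa (0.15), Dab2 (0.15) and Hcls1 (0.17), with BV2 levels of 4.55, 4.44 and 4.60. Nearest to Ptgs1 were Arhgap11a (0.18), Pebp1 (0.19) and Atp6ap2 (0.24), each higher in N18 (4.74, 5.34 and 4.62) than in BV2 (3.47, 4.14 and 3.55). These are descriptions over 3 lines. Of the 12 microglia markers, 8 were higher in BV2 than in N18 (21.9% of all genes and targets) and 4 were not called. Against AtT20 7 of these markers were higher (26.6% of all), 3 lower (47.0% of all) and 2 not called. Their summed level was 28.3 to 34.8 in BV2, 4.0 to 5.2 in N18 and 0.3 to 1.9 on the AtT20-labelled plates. Their part in these values was not tested.

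The other genes of the pathway were counted by list between BV2 and N18. Over all 25128 genes and targets 21.9% were higher in BV2 and 19.0% lower, with a median difference of 0.06. Relative to the seminal proteins 3296 of them were higher and 9754 lower. Of 18 other phospholipases A2 on the list, 4 were higher in BV2, 2 lower and 12 not called, with a median difference of 0.02. Pla2g5, a secreted phospholipase, was higher by 0.77 (SE 0.15, adjusted p = 5.44e-04), at 1.54 ± 0.26 in BV2 and 1.05 ± 0.11 in N18. Pla2g6, the calcium-independent enzyme, was lower by -0.45 (adjusted p = 0.0112), at 1.35 ± 0.32 and 2.42 ± 0.17, and Pla2g2c and Pla2g1b were higher by 0.34 and 0.29. Pla2g2c was called in 7 of 16 settings, and Pla2g1b, below the threshold in both lines, in 4 of 15. The largest difference on the list was thus 0.77, beside 4.10 for Pla2g4a. On the scale of the seminal proteins 2 of the 18 were higher in BV2 and 7 lower.

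Of 8 other prostaglandin synthases 1 was higher (21.9% of all genes and targets), 1 lower (19.0% of all) and 6 not called. Ptges3, a co-chaperone that also has prostaglandin E synthase activity, was the lower one (-0.73, SE 0.10, adjusted p = 1.35e-05), at 4.47 ± 0.37 in BV2 and 5.75 ± 0.21 in N18, and it was also above the threshold on the AtT20-labelled plates at 2.79 ± 0.75. Akr1c18 was higher by 0.42 (adjusted p = 0.00298). Of 6 other lipoxygenases 3 were higher (21.9% of all) and none lower (19.0% of all). The largest difference was 0.37 for Alox12b (adjusted p = 0.0389). Of the others, Aloxe3 differed by 0.32 and Alox15 by 0.26, the latter with both lines below their thresholds. Akr1c18 kept its direction in 15 and its call in 13 of 16 settings, Alox12b in 14 and 6, and Alox15 was called in 4 of 15. Set against the seminal proteins, 1 prostaglandin synthase was higher and 4 lower, and 1 lipoxygenase was higher and none lower.

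Dpep2 and Mapkapk2 had the widest differences among the other pathway genes. Of 7 genes for related membrane enzymes and for the processing of cysteinyl leukotrienes, 4 were higher in BV2, 1 lower and 2 not called. Among all genes and targets 21.9% were higher and 19.0% lower. Dpep2, a dipeptidase that converts leukotriene D4 to leukotriene E4, was higher by 2.33 (SE 0.14, adjusted p = 5.29e-10), at 3.07 ± 0.25 in BV2, 0.92 ± 0.17 in N18 and 0.52 ± 0.29 on the AtT20-labelled plates. Mgst2, which can also make leukotriene C4, was higher by 0.78 (adjusted p = 3.82e-05), Dpep1 was higher by 0.33 (the same direction in 14 and called in 7 of 16 settings) and Mgst3 lower by -0.43. Of 3 genes grouped in a list with 5-lipoxygenase 1 was higher, 1 lower and 1 not called. Mapkapk2, a kinase that phosphorylates 5-lipoxygenase, was higher in BV2 by 2.72 (SE 0.12, adjusted p = 2.50e-11), at 4.32 ± 0.33 against 2.23 ± 0.14. Cotl1, a coactosin-like protein that binds 5-lipoxygenase, was lower by -1.40 (SE 0.13, adjusted p = 2.66e-07), at 2.25 ± 0.46 against 4.19 ± 0.25. The gene not called was Anxa1 (0.06, adjusted p = 0.739), below the threshold in both lines.

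Of 14 genes for inactivation and transport 4 were higher in BV2 (21.9% of all genes and targets), 2 lower (19.0% of all) and 8 not called. The exporter Abcc4 was higher by 1.28 (SE 0.10, adjusted p = 4.02e-08) and above the threshold only in BV2, at 1.24 ± 0.19, as against -0.13 ± 0.17 in N18. Ephx2 was higher by 0.47, while the carbonyl reductase Cbr3 and the prostaglandin reductase Ptgr2 were lower by -1.05 (adjusted p = 1.70e-06) and -0.44 (adjusted p = 0.00815). By levels relative to the seminal proteins, 2 genes of this list were higher and 3 lower.

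Of 14 eicosanoid receptors 4 were higher in BV2 (21.9% of all genes and targets), none lower (19.0% of all) and 10 not called. Those higher were the prostaglandin E2 receptors Ptger1 (1.41, adjusted p = 3.21e-08) and Ptger3 (0.67, adjusted p = 8.37e-04), the prostaglandin D2 receptor Ptgdr2 (0.87, adjusted p = 1.56e-05) and Cysltr1 (0.38, adjusted p = 0.00799), the last below the threshold in both lines. The leukotriene B4 receptor Ltb4r1, whose ligand Lta4h makes, was below the threshold in every line, while the other, Ltb4r2, was above it in all 3, at 1.52 in BV2, 2.11 in N18 and 1.29 for AtT20. With levels relative to the seminal proteins, 4 receptors were higher and 1 lower.

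Against the plates labelled AtT20 the other pathway genes were described by list. BV2 minus AtT20 had medians of -0.40 for the phospholipases A2, -0.33 for the prostaglandin synthases and -0.59 for the receptors, all under the -0.23 over all genes and targets. The medians of the other lists were above it, at -0.13 for the lipoxygenases, -0.15 for the enzymes of cysteinyl leukotrienes and -0.10 for inactivation and transport. The last was 1.34 for the 3 genes grouped with 5-lipoxygenase, of which Anxa1 was lower, at -1.93. Relative to the seminal proteins the 7 medians were, in the same order, -0.10, 0.29, -0.11, 0.29, 0.47, 0.63 and 2.10, beside 0.28 over all.

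**Figure D4:**
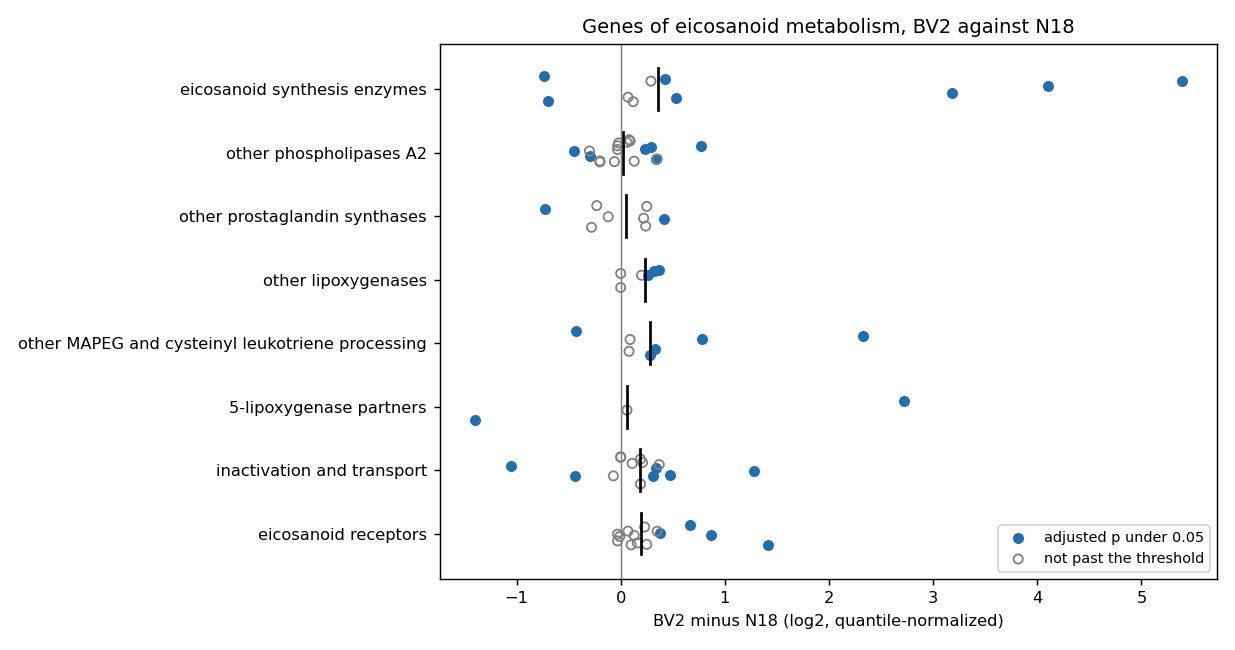
Difference of BV2 from N18 (x axis, log2 after quantile normalization) for the enzymes and for the other genes of the pathway by list (y axis). Each point is a gene, filled where limma's adjusted p was under 0.05, and black bars are list medians. Ptgs2, Pla2g4a and Alox5ap lie farthest to the right, at 5.39, 4.10 and 3.18, followed by Mapkapk2 and Dpep2.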

How the data were processed

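RNA of 12 plates was measured on NimbleGen arrays. As deposited, the files hold log2 values by which the authors gave the Cy3 intensities of 72000 probes, and no background subtraction or normalization between arrays is described. Symbols came from RefSeq transcripts of GRCm38.p6 (names only) and matched 69.4% of 25631 targets. Each member has 3 probes, averaged on the linear scale, and their highest value was 15.60 (limit of the values 16.00). Members and lists were chosen with earlier results of these data known. All members are named, with at most 4 called genes of each list with the largest difference of BV2 from N18, their receptors and the 3 genes nearest in pattern to each of 3 members, of which 1 is not reported here.

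Differences were fitted with limma 3.58.1 (R 4.3.3; lmFit, eBayes with a trend) on 12 quantile-normalized arrays, with Benjamini-Hochberg adjustment across the 25128 genes and targets. Both steps were tested on simulated data. Settings tried were levels relative to the seminal proteins, no normalization, mean of log2 probes, median of probes, normexp (offset 50), only genes above the threshold, a replicate block, the 8 arrays of a pair and each plate left out. Added after seeing the data was Lta4h without probe 3. Listed genes that found no target (Pla2g2a, Pla2g4b, Ptgr3, Cd68, Tpsab1) and HEK293 cells are not analysed here. Tables and figures used scipy 1.17.1, pandas 2.3.3, numpy 2.4.6 and matplotlib 3.10.9 under Python 3.11.15.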

Additional observations from a re-analysis of the deposited data

Results flagged for a closer look

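In 120 groups of 4 plates (levels of the members and of their probes in each line) 6 had 1 plate far from the other 3, and chance flags about 1 in 20 groups. Pla2g4a in N18 was at -0.04 on plate 1 against 0.18 to 0.19 on the others, all below the threshold. Lta4h in N18 was at 4.18 on plate 2 against 3.62 to 3.71, and its probe 1 there was at 5.06 against 4.61 to 4.68. Probe 1 of Ptges in BV2 was at -0.48 on plate 3 against -0.12 to -0.05, probe 1 of Alox5 in BV2 at 0.27 on plate 2 against 0.04 to 0.07, and probe 2 of Tbxas1 on the AtT20-labelled plates at -0.12 on plate 2 against 0.09 to 0.13.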

How the results depend on the processing

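Under 16 settings for each comparison the differences of Ptgs2, Pla2g4a, Alox5ap, Ptgs1 and Lta4h between BV2 and N18, and of Ptgs2, Pla2g4a, Ptgs1 and Alox5ap between BV2 and AtT20, kept their direction and their call. Relative to the seminal proteins the direction turned for Alox5 between BV2 and N18 (-0.02), between BV2 and AtT20 (0.27) and between N18 and AtT20 (0.29), and against AtT20 for Lta4h in BV2 (0.20) and N18 (1.49) and for Hpgds in BV2 (0.04). Without normalization it turned for Ptges in BV2 (-0.59) and N18 (-0.70) and for Lta4h in N18 (0.10), all against AtT20. With the median of probes it turned for Alox5 between BV2 and N18 (-0.03) and for Lta4h against AtT20 in BV2 (0.54) and N18 (1.03), the latter also with the mean of log2 probes (0.35). Without the third probe of Lta4h its difference from AtT20 was 1.64 in BV2 (2.62 relative to the seminal proteins, 1.26 without normalization) and 2.37 in N18 (3.95 and 2.56). Alox5ap between N18 and AtT20 was -0.01 without AtT20 plate 3 and 0.38 without plate 2. The cause was not tested.

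Members lower in BV2 than in AtT20 were 4, and 6 without normalization (with 4 higher), 1 relative to the seminal proteins (with or without the third Lta4h probe), 2 with the median of probes and 2 with only genes above the threshold. Members higher in N18 than in AtT20 were 1, and 5 relative to the seminal proteins (with or without that probe), 2 with the mean of log2 probes, 2 with the median of probes, 2 without that probe (also without normalization) and 1 to 3 with a plate left out (3 without AtT20 plate 2, 2 without AtT20 plate 4). Among all 25128 genes and targets, 11808 were lower in BV2 than in AtT20, 18762 without normalization and 4413 relative to the seminal proteins. Higher in N18 than in AtT20 were 6981, 5012 without normalization and 15255 relative to the seminal proteins. With only genes above the threshold, which tests 7 members, 4 differed between N18 and AtT20 and 3 were lower. Between BV2 and N18 the count of 7 lay between 6 and 7 with a plate left out, and members above the threshold were 2 to 3 on the AtT20-labelled plates, 5 to 7 in BV2 and 3 in N18 over the settings.

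Plate numbers did not pair the samples (correlations of deviations between -0.11 and 0.32), and with a replicate block 7, 9 and 7 members were called, as without it. Signal near that of the seminal proteins limits Alox5, Tbxas1 and Hpgds.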
